A study of Mus musculus with 16 samples.

Results

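Ctcf and Rad21 encode CTCF and a cohesin subunit, and both genes were examined here in female mouse embryonic stem (ES) cells as targets of CTCF itself, on RNA and on chromatin. They were chosen by name and taken as 2 windows of build mm9 among 42916 transcribed regions. The Ctcf window was chr8:108160247-108206824 on the plus strand, and the Rad21 window was chr15:51790000-51826000 on the minus strand. The longest row of the RNA-seq lists in each window served as the transcript. It ran from chr8:108160200-108206822 for Ctcf (46623 bp) and from chr15:51794151-51823306 for Rad21 (29156 bp). The Rad21 window reached past both ends of its transcript.

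CTCF binds DNA through an array of zinc fingers, sits at insulators and at the anchors of chromatin loops, and also contacts RNA. Rad21 is the kleisin subunit of cohesin, the ring complex that also contains Smc1a and Smc3, extrudes chromatin loops and holds sister chromatids together. Cohesin moving along chromatin is held at CTCF-bound sites, so the pair is often studied together.

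The series comprised 16 samples, of which 9 were analysed here. Day 0 cells were undifferentiated, adherent and grown with LIF, the cytokine that keeps ES cells undifferentiated; day 3 cells had spent 3 days in non-adherent culture without LIF. In CLIP, UV light crosslinks RNA to the protein that is then pulled down, and there were 2 UV-treated libraries per day. CTCF ChIP, which recovers DNA bound by the protein, had 2 libraries on day 0 and 1 on day 3. RNA-seq of nuclear RNA was limited to a single library for each day (n = 1).

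CLIP and RNA-seq cells were of the strain cross CAST/Ei x 129/Sv/Jae, and ChIP cells of 129S1/CastEiJ x 129S1. CLIP used Anti-Flag M2 beads on nuclear lysates, and the series' design text names CTCF as the protein whose RNA contacts were sought. The labels do not say how a FLAG-tagged protein was introduced. Whether sequence from a construct contributes to the CLIP peaks or the RNA listed at Ctcf was not tested. ChIP used an antibody to CTCF. CLIP without UV and ChIP input samples were not analysed here. The labels do not state that replicates were separate cultures, so p-values reflect no more than the spread of these libraries, which may be technical.

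The CLIP lists held 114016 and 213181 peaks on day 0 and 106382 and 165695 on day 3, with 4.71 to 8.30 Mb of peak bases per list. The ChIP lists held 45377, 76745 and 41264 peaks, in the order day 0 replicates 1 and 2, then day 3. In both assays day 0 replicate 2 had the longest list. Read depth is unknown for all of them, so CLIP values were scaled to the Mb of peak bases in their list. Markers of ES cells were not read, since the RNA-seq rows carry no gene names and no mm9 annotation was used here.

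The promoter of Ctcf is shown because CTCF ChIP peaks covered the start of the gene in some libraries. It was matched by symbol in RefSeq, build GRCm38.p6, whose positions cannot be set beside the mm9 positions of the peaks. The match covered 1 of the 2 genes, and Rad21 is named only. The 250 bases before the start, on the plus strand at chr8:105636288-105636537, are given with matches to CCCTC, or to its reverse complement GAGGG, in capitals.

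Ctcf promoter: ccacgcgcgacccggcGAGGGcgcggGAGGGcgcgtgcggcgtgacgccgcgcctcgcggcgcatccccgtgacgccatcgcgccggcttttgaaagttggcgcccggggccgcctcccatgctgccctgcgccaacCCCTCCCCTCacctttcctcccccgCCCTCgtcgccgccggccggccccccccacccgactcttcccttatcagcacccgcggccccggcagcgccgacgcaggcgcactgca

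CCCTC is the repeat from which CTCF takes its name. The stretch held 5 matches over both strands, beginning 234, 224, 113, 108 and 88 bases before the start. At least 1 match was present in 60.5% of 32851 promoters of the same length, and 5 or more were present in 2.61%. The stretch was 77.6% G or C with 40 CpG dinucleotides, against a median of 52.4% over all promoters, which placed it at percentile 97.6. A match is a description of these letters and not a measured site.

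CLIP peaks lay on the Ctcf RNA in every library. The same-strand counts in the window were 39 and 44 peaks on day 0 and 26 and 32 on day 3. The Rad21 window held 30 and 43 same-strand peaks on day 0 and 20 and 45 on day 3. Both genes thus had same-strand peaks in both libraries of each day, as did 68.1% of regions of at least 10 kb on day 0 and 67.0% on day 3. Over all regions, most of them short, the shares were 21.8% and 21.0%.

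The lists differed in length, so coverage was compared per kb of window and per Mb of list. In Ctcf, same-strand peaks covered 5.09 and 3.98 bases per kb per Mb of list on day 0 and 4.06 and 3.89 on day 3. In Rad21 the densities were 6.36 and 5.44 on day 0 and 4.93 and 7.44 on day 3. Rad21 was the more densely covered of the pair in 4 of 4 libraries, by 1.25 and 1.37 times on day 0 and 1.22 and 1.91 times on day 3. This ordering is given as a description, without a test.

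Both genes were in the upper part of the distribution of long regions. Among the 7796 to 8573 regions of at least 10 kb with peaks in a library, whose median density was 1.13 to 1.26 bases per kb per Mb, Ctcf stood at percentiles 92.1 and 89.4 on day 0 and 88.9 and 87.5 on day 3. Rad21 stood at percentiles 94.96 and 93.8 on day 0 and 92.1 and 96.7 on day 3. Rad21 ranked above Ctcf in each library. Regions were not matched for RNA level in this ranking.

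**Figure D1:**
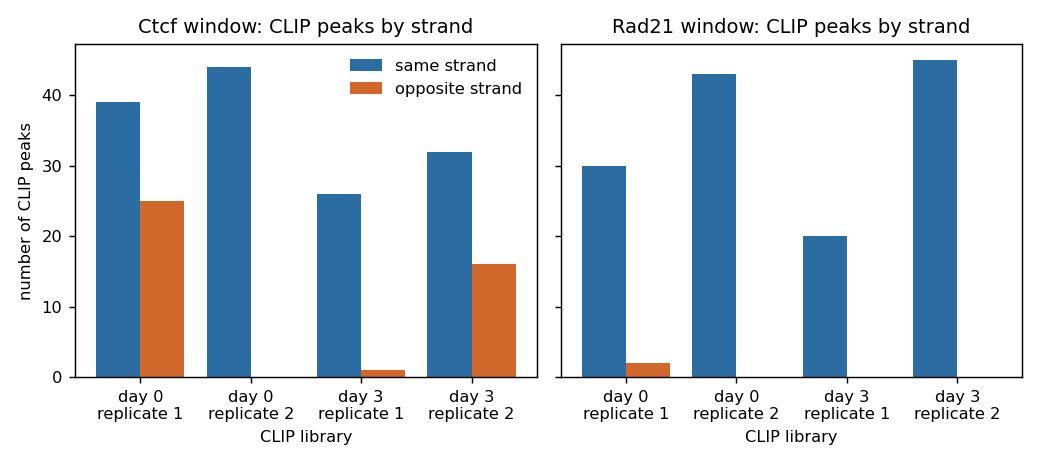
CLIP peaks in the Ctcf window (left) and the Rad21 window (right), as the number of peaks on the strand of the gene (blue) and on the opposite strand (orange) in each of the 4 CLIP libraries. Ctcf had 25 and 16 opposite-strand peaks in day 0 replicate 1 and day 3 replicate 2, against at most 2 in any Rad21 bar.

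CLIP density did not differ detectably between the days for either gene. For Ctcf the mean was 4.54 ± 0.782 bases per kb per Mb on day 0 and 3.97 ± 0.121 on day 3 (SD, n = 2). The fitted change on the log2 scale, with a pseudocount of 1, was -0.18 (SE 0.31, 95% interval -0.92 to 0.56, limma with Benjamini-Hochberg adjustment over 12325 regions, adjusted p = 0.953). The day 3 libraries of Ctcf lay beside day 0 replicate 2, and day 0 replicate 1 was the highest of the 4.

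For Rad21 the mean density was 5.90 ± 0.649 on day 0 and 6.18 ± 1.77 on day 3 (SD, n = 2). The fitted log2 change was 0.04 (SE 0.34, 95% interval -0.76 to 0.85, limma adjusted p = 0.999). The day 3 libraries held both the lowest and the highest Rad21 value, and the days overlapped. Leaving out day 3 replicate 2 turned the Rad21 change to -0.25, and leaving out day 0 replicate 2 turned it to -0.07.

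Neither gene stood apart from the background of the fit. Over all 12325 regions limma called 0% higher and 0% lower at an adjusted p under 0.05; 899 regions had an unadjusted p under 0.05, and the lowest adjusted p was 0.662. The same fit on peak counts called 45 regions, 26 higher and 19 lower, and neither Ctcf (adjusted p = 0.900) nor Rad21 (adjusted p = 0.995) was among them. The median log2 change over all regions was -0.01.

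Nuclear RNA from both genes was listed on both days, with 1 library per day and so no replicate check. The Ctcf row, which pools 4 transcripts on each day and gives what appears to be their mean, was listed at 11.6 FPKM (a level scaled to transcript length and to library size) on day 0 and 77.5 FPKM on day 3. On the log2(FPKM + 1) scale this was 2.64 higher, or 6.22-fold. Among rows of at least 10 kb the Ctcf row stood at percentile 72.1 on day 0 and 94.3 on day 3. Rises past a log2 difference of 1 were seen in 19.0% of 16254 regions by the highest row of a region and in 18.2% by the longest row. Falls past 1 were seen in 15.3% and 14.6%, and the median change over these regions, each of at least 1 kb, was 0.15 by either row.

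The Rad21 transcript went the other way. Its long row was listed at 25.9 FPKM on day 0, pooling 11 transcripts, and at 10.8 FPKM on day 3, pooling 6 transcripts. This was a log2 difference of -1.19. Multiplying each value by its number of transcripts, an alternative chosen after the values were seen, gave 284.56 and 64.76 FPKM and a difference of -2.12. Its percentile among rows of at least 10 kb went from 87.4 to 64.4.

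The main rule for RNA, the highest same-strand row of a window, gave a different Rad21 value. On day 3 the highest row was a 176 bp row at chr15:51793868-51794043, past the end of the transcript, listed at 124.89 FPKM. With that row the Rad21 difference was 2.23 in place of -1.19, so the direction for Rad21 depends on which row is read. For Ctcf the highest row was also the longest. In bulk RNA, more cells of a type and more RNA per cell cannot be told apart, and the number of transcripts pooled in a row differed between the days for Rad21.

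Set side by side, the 2 readouts of Ctcf differed in size. By FPKM plus 1, the RNA row was 6.22-fold higher on day 3 in the single pair of libraries. The 95% interval of the scaled CLIP change included 0. For Rad21 the long RNA row was lower on day 3 and the CLIP mean differed by less than the spread between libraries. No test joined the 2 readouts, because RNA-seq had 1 library per day.

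**Figure D2:**
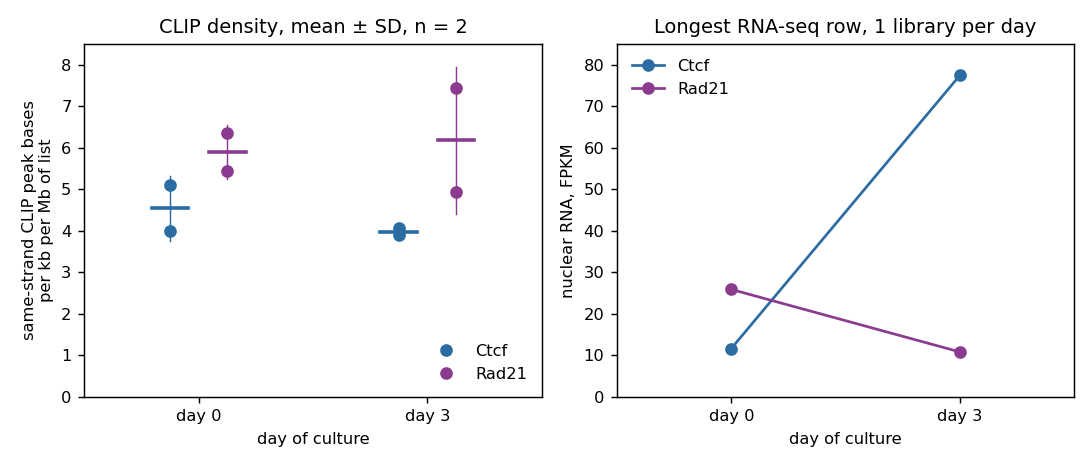
Left, same-strand CLIP peak bases per kb per Mb of list for each library (points) with the mean and SD of 2 libraries per day (bars); right, FPKM of the longest RNA-seq row of each gene, with 1 library per day. Ctcf RNA goes from 11.6 to 77.5 FPKM and Rad21 RNA from 25.9 to 10.8, and the CLIP points of the days lie close together or overlap.

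Same-strand CLIP peaks were found from the early to the late part of both transcripts, with gaps in some libraries. In Ctcf, day 3 replicate 1 had none between peaks centred 7.31 and 24.8 kb from the start. Day 0 replicate 2 had none in Ctcf between peaks centred 29.7 and 39.8 kb from it. In Rad21, day 3 replicate 1 had none between peaks centred 21.7 and 26.6 kb from its start. Overlapping peaks were merged into sites, which gave 126 same-strand sites in Ctcf. Of these, 115 had a peak in 1 library, 10 in 2 libraries and 1 in all 4. Rad21 had 106 same-strand sites, of which 86 were found in 1 library, 14 in 2, 2 in 3 and 4 in all 4. Most sites of either gene were therefore seen once.

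Peak positions recurred less in Ctcf than in Rad21 in 11 of the 12 ordered pairs of libraries. Between the day 0 libraries, 3 of 39 Ctcf peaks of replicate 1 (7.69%) overlapped a peak of replicate 2, against 7 of 30 for Rad21 (23.3%) and 17.8% of all peaks in the list. Between the day 3 libraries, 1 of 26 Ctcf peaks of replicate 1 (3.85%) overlapped replicate 2, against 4 of 20 for Rad21 and 11.9% of all. The exception was the share of day 0 replicate 1 peaks that overlapped day 3 replicate 1, at 7 of 39 for Ctcf (17.9%) and 5 of 30 for Rad21 (16.7%). In the reverse direction the shares were 6 of 26 and 5 of 20. These are counts of few peaks and were not tested. The ordered pairs count each pair of libraries in both directions, so they are not independent. Rad21 same-strand peaks had median widths of 36.5, 33, 48 and 37 bp, in the order day 0 replicates 1 and 2, then day 3. Those of Ctcf had 23, 30.5, 36.5 and 29.5 bp, and the effect of width on overlap was not tested.

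The Ctcf site found in all 4 libraries lay at chr8:108205673-108205856, 45.6 kb from the start and near the end of the transcript. The authors' scores of its peaks were 426 and 330 on day 0, 690 in day 3 replicate 1, and 847 and 331 for 2 peaks of day 3 replicate 2. The peaks were linked in a chain, and requiring overlap of at least 0.5 of the shorter peak left no Ctcf site in all 4 libraries.

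The 4 Rad21 sites found in all 4 libraries lay 17.9 to 29.0 kb from its start. The site nearest the end, chr15:51794271-51794364, had peaks that were 85, 87, 25 and 81 bp wide with scores of 1313, 515, 650 and 415 in the order day 0 replicates 1 and 2, then day 3 replicates 1 and 2. The site at chr15:51801501-51801583 had scores of 832, 317, 595 and 709 in the same order. The site at chr15:51805379-51805485 had scores of 501, 312, 775 and 568. Scores are on each list's own scale, whose medians ran from 309 to 610, so they rank peaks within a list only.

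The remaining site, chr15:51803306-51803414, held 6 peaks. Their scores were 668 in day 0 replicate 1, 281 and 246 in day 0 replicate 2, 1215 in day 3 replicate 1, and 780 and 603 in day 3 replicate 2. With only peaks in the upper part of each list by score (at or above its median), 1 Rad21 site was left in all 4 libraries. No base sequence is printed for these sites, since no mm9 sequence was used here.

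The end of the Rad21 transcript held a larger share of coverage than the end of long regions pooled, but was not its highest part in most libraries. Each transcript was divided into 10 equal segments, and the last segment held 22.2% of Rad21 same-strand bases over the 4 libraries, at 16.3% and 32.6% on day 0 and 15.8% and 19.6% on day 3. Over all regions of at least 10 kb the last segment held 14.3%, 12.2%, 11.4% and 11.2% in the same libraries, so Rad21 was above that value in 4 of 4. Within Rad21 the last segment was the highest in day 0 replicate 2 only. The ninth segment was highest in day 0 replicate 1, at 18.3%. The seventh was highest in both day 3 libraries, at 30.0% and 19.8%. Ctcf held 16.6% in its last segment over all libraries and 6.43% in day 0 replicate 1, with 15.2%, 19.3% and 26.1% in the others. The seventh segment of Ctcf ranged from 4.06% in day 3 replicate 2 to 28.7% in day 3 replicate 1.

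Ctcf differed from Rad21 in carrying peaks on the opposite strand. The counts on the minus strand in the Ctcf window were 25 and 0 on day 0 and 1 and 16 on day 3. As shares of all peaks in the window these were 39.1% (exact 95% Clopper-Pearson interval 27.1 to 52.1) in day 0 replicate 1 and 33.3% (20.4 to 48.4) in day 3 replicate 2. Day 3 replicate 1 had 3.70% (0.0937 to 19.0), and day 0 replicate 2 had 0 of 44 peaks, which allows a share of up to 8.04% by the same kind of interval.

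The split did not follow the days: 1 library of each day was high and 1 was low. Intervals and the limit cover counting error only. Rad21 had 2 opposite-strand peaks, both in day 0 replicate 1 (6.25%, interval 0.766 to 20.8) at chr15:51825500-51825546. These lay before the transcript start, so its transcript had none in any library.

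A share this high was uncommon among transcribed regions. In regions of at least 10 kb with same-strand peaks in all 4 libraries, 5.77% of 6566 had opposite-strand peaks in at least 3 libraries, as Ctcf did. Among regions with at least 20 peaks, the median share was 0% in each library. In day 0 replicate 1, 13 of 1381 such regions had a share at least as high as Ctcf, and in day 3 replicate 2, 19 of 2176 had.

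Many regions with high shares overlap an RNA-seq row on the other strand, and counting only peaks off such rows narrowed the comparison. All 25 and 16 Ctcf peaks lay off them. By that count 1 of 1366 regions was at least as high as Ctcf in day 0 replicate 1 and 2 of 2161 in day 3 replicate 2, against 65 of 1286 in day 3 replicate 1. The pooled share over regions was 0.537%, 0.820%, 0.372% and 0.807% in the order day 0 replicates 1 and 2, then day 3. These are ranks within each list, not tests between conditions.

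**Figure D3:**
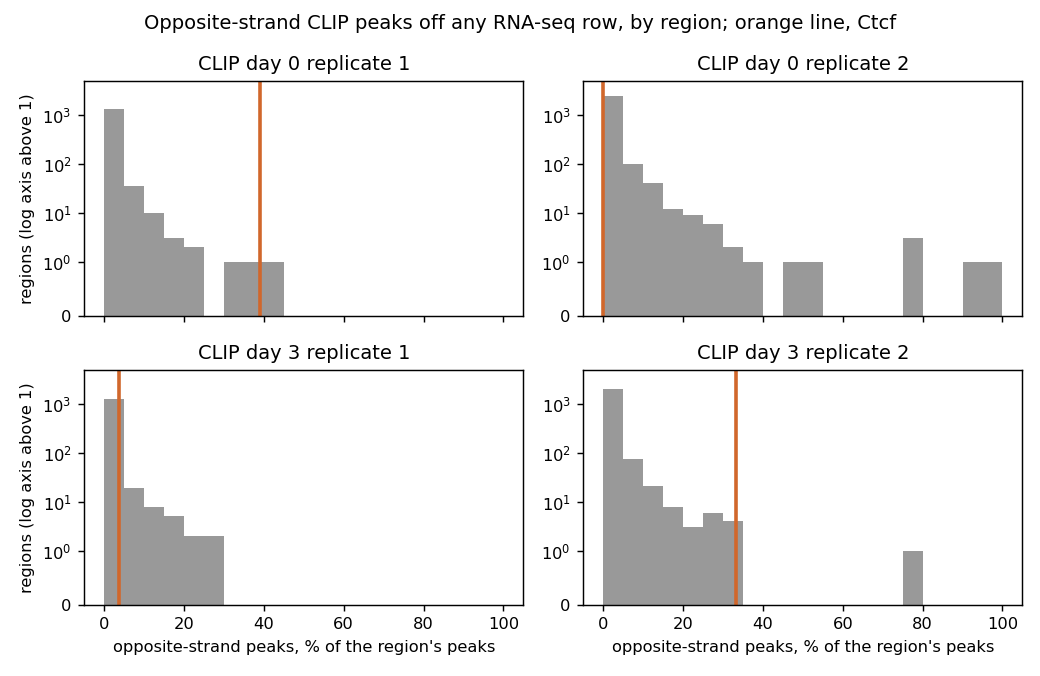
Number of transcribed regions (log axis above 1) by the percentage of their CLIP peaks on the opposite strand and off any RNA-seq row of that strand, for regions with at least 20 peaks, in 1 panel per CLIP library. The orange line marks Ctcf, at 39.1% in day 0 replicate 1 and 33.3% in day 3 replicate 2, in the sparse tail, and at 0% and 3.70% in the other libraries.

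The opposite-strand peaks of Ctcf fell in 7 clusters, defined after their positions were seen by joining peaks no more than 500 bp apart. All lay in the later part of the transcript, 28.1 to 45.2 kb from its start by their centres, and together they spanned 1637 bp, or 3.51% of it. Of the 7 clusters, 5 had peaks from at least 2 libraries, so opposite-strand peaks of different libraries fell in several of the same short stretches. Merged into sites, they gave 33, of which 8 were shared by 2 libraries.

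The main cluster, chr8:108187723-108188859, held 23 of the 42 peaks: 12 from day 0 replicate 1, 1 from day 3 replicate 1 and 10 from day 3 replicate 2. It also held 16 same-strand peaks from all 4 libraries. The strongest opposite-strand scores were in the cluster nearest the end, chr8:108205333-108205479, where a peak of day 0 replicate 1 reached 2604 and one of day 3 replicate 2 reached 1797. The median score over all peaks of those lists was 597 and 390.

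By count, same-strand peaks of Ctcf also gathered in these stretches, mainly in the replicate 1 libraries. The clusters held 29 of 141 same-strand peaks (20.6%) in 3.51% of the transcript. By library this was 11 of 39 and 4 of 44 on day 0 and 12 of 26 and 2 of 32 on day 3. Without the peaks in clusters, replicate 1 density went from 5.09 to 4.23 bases per kb per Mb on day 0. On day 3 it went from 4.06 to 2.32. The replicate 2 densities went from 3.98 to 3.86 on day 0 and from 3.89 to 3.81 on day 3. Covered bases thus showed no such gathering in the replicate 2 libraries. The share of same-strand peaks inside was highest in both replicate 1 libraries, whereas the opposite-strand peaks came from day 0 replicate 1 and day 3 replicate 2. No cluster overlapped an opposite-strand RNA-seq row.

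Opposite-strand peaks were narrow in the libraries that held most of them. Their median width was 7 bp in day 0 replicate 1 and 16 bp in day 3 replicate 2, while the single peak of day 3 replicate 1 was 68 bp wide. Of the 25 and 16 peaks in the first 2 of these libraries, 16 and 6 were under 10 bp. The same-strand peaks of Ctcf had median widths of 23, 30.5, 36.5 and 29.5 bp, and the lists as a whole 46, 38, 47 and 36 bp. Same-strand Ctcf peaks under 10 bp numbered 11 of 39 and 6 of 44 on day 0 and 7 of 26 and 4 of 32 on day 3. Whether exons of Ctcf lie under the clusters was not tested, since no exon annotation of mm9 was used here.

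Without the peaks inside the cluster spans, Ctcf had 28 and 40 same-strand peaks on day 0 and 14 and 30 on day 3. The scaled densities were then 4.23, 3.86, 2.32 and 3.81 bases per kb per Mb, and day 3 replicate 1 was the lowest. The day change was -0.44 (SE 0.37, limma adjusted p = 0.828), a comparison chosen after the values were seen.

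**Figure D4:**
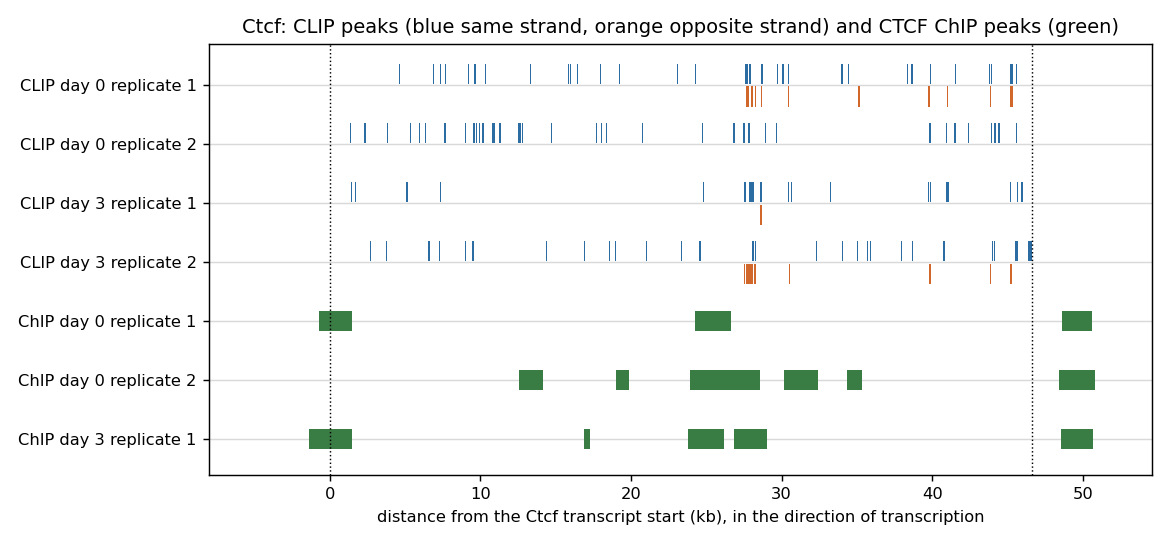
Position of CLIP peaks (blue, same strand; orange, opposite strand) and CTCF ChIP peaks (green) along Ctcf in each of the 7 libraries, as distance from the transcript start in kb in the direction of transcription; dotted lines mark the ends of the transcript. Opposite-strand peaks lie between 28.1 and 45.2 kb by cluster centre, and a ChIP peak about 3.0 kb past the end is present in all 3 ChIP libraries.

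CTCF ChIP peaks were present at the start of Ctcf in 2 of 3 libraries. In day 0 replicate 1 the peak at chr8:108159472-108161694 had the authors' score of 25.8, at percentile 47.4 of its list. On day 3 the peak at chr8:108158812-108161704 had a score of 24.9, at percentile 38.7. Day 0 replicate 2, the longest list, had no peak within 1 kb of the start. A peak within 1 kb of the start was listed for 17.2%, 32.4% and 19.7% of regions of at least 1 kb in the order day 0 replicates 1 and 2, then day 3, and in at least 2 of the 3 libraries for 20.4%.

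A site inside Ctcf, chr8:108183982-108189231, had peaks in all 3 libraries. The scores were 33.98 in day 0 replicate 1 (percentile 64.6), 17.2 in day 0 replicate 2 (percentile 51.5) and 72.3 on day 3 (percentile 96.1). The day 3 list had a further peak in the same site, at chr8:108187023-108189231, with a score of 18.3. Ranks from lists of different lengths do not show a change, and day 3 had 1 library. The window held 2, 5 and 4 ChIP peaks in the 3 libraries, and the other body peaks were each found in 1 library.

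The strongest CTCF ChIP peak near Ctcf lay outside it, about 3.0 kb past the transcript end. It was found in all 3 libraries, with scores of 91.6 (percentile 99.0) and 78.1 (percentile 98.9) on day 0 and 137 (percentile 99.9) on day 3. It ranked above every other ChIP peak named here for Ctcf or Rad21 in each list.

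Rad21 had no CTCF ChIP peak at its start in any library. Day 0 replicate 1 had no peak in the window at all, although 68.1% of regions of at least 10 kb held at least 1 peak in that library. Day 0 replicate 2 had 2 peaks in the window, chr15:51807199-51809087 with a score of 16.2 (percentile 49.1) and chr15:51792277-51795063 with a score of 13.4 (percentile 41.5). On day 3 there was 1 peak, chr15:51807337-51809072, with a score of 18.8 (percentile 19.2), over the first of these. The corresponding shares of regions with a peak were 85.5% in day 0 replicate 2 and 67.7% on day 3.

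The nearest peaks before the Rad21 start were in day 0 replicate 2 only, at chr15:51827220-51828097 and chr15:51828808-51830900. The first was centred at -4.35 kb relative to the start. Per 10 kb of window, Rad21 held 0, 0.556 and 0.278 ChIP peaks, against 0.234, 0.446 and 0.222 pooled over regions of at least 10 kb. Ctcf held 0.429, 1.07 and 0.859. Ctcf was above the pooled value in all 3 libraries, and Rad21 in 2 of 3.

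**Figure D5:**
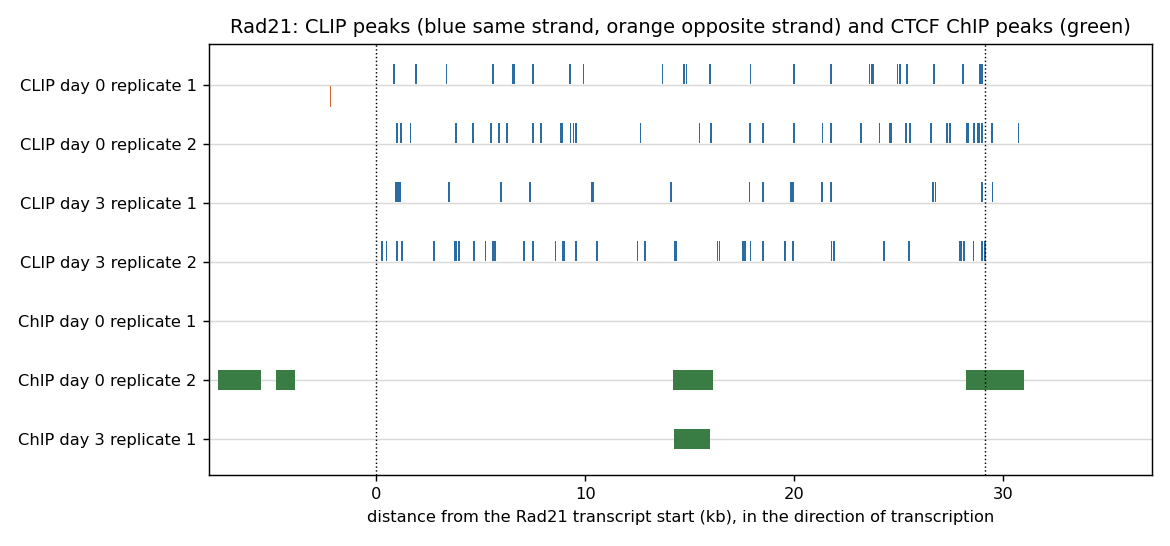
Position of CLIP peaks (blue, same strand; orange, opposite strand) and CTCF ChIP peaks (green) along Rad21 in each of the 7 libraries, as distance from the transcript start in kb in the direction of transcription; dotted lines mark the ends of the transcript. Same-strand peaks run along the transcript in all 4 CLIP libraries, and no ChIP peak lies at the start.

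CLIP and ChIP peaks of Ctcf met mostly in the body site. ChIP peaks of day 0 replicate 2 covered 22.2% of the Ctcf window, and 12 of 39 and 7 of 44 same-strand CLIP peaks of day 0 lay over them, as did 11 of 26 and 5 of 32 of day 3. Of the opposite-strand peaks, 15 of 25 in day 0 replicate 1 and 11 of 16 in day 3 replicate 2 lay over ChIP peaks of that library. Over the ChIP peaks of day 0 replicate 1, which covered 8.31% of the window, no opposite-strand peak lay in any CLIP library. Same-strand peaks over them were 1 of 39 and 2 of 44 on day 0 and 2 of 26 and 1 of 32 on day 3, below 8.31% in each. The day 3 ChIP peaks covered 14.0% of the window. Over these lay 7 of 39 and 6 of 44 same-strand peaks of day 0 and 10 of 26 and 4 of 32 of day 3.

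The ChIP peaks of day 0 replicate 2 and of day 3 reached the main cluster of opposite-strand peaks, and those of day 0 replicate 1 ended before it. For Rad21, ChIP peaks of day 0 replicate 2 covered 13.0% of the window and held 6 of 30 and 10 of 43 same-strand CLIP peaks of day 0, and 2 of 20 and 5 of 45 of day 3. The day 3 ChIP peak covered 4.82% of the Rad21 window. It held 4 of 30 and 1 of 43 same-strand peaks of day 0 and 0 of 20 and 2 of 45 of day 3. These peaks share the window's few sites and were not tested.

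Opposite-strand RNA was listed near the Ctcf start. A row on the minus strand at chr8:108159733-108161450 was listed at 5.40 FPKM on day 0, and on day 3 a row at chr8:108159691-108161671 was listed at 11.1 FPKM. A second minus-strand row, chr8:108184234-108184687, was listed at 1.65 FPKM on day 0 and 0.94 on day 3. The first overlaps the start and the ChIP peak there, and the second lies under the ChIP site of the body. Neither reached an opposite-strand CLIP cluster.

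Regions with the profile most like each gene were found from 6 values, the scaled CLIP density in 4 libraries and the RNA level on 2 days, each in log2 and divided by its SD over 6484 regions. Nearest to Ctcf was chr19:3454882-3575749 on the minus strand, at a distance of 0.179 against a median of 2.68, with RNA at 11.3 FPKM on day 0 and 73.1 on day 3. The next were chr15:8059313-8110506 on the plus strand and chr14:58199436-58284361 on the minus strand. For Rad21, whose day 3 RNA value here is that of the 176 bp row, the nearest was chr8:86423700-86465853 on the plus strand, at a distance of 0.465 against a median of 3.26.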

How the data were processed

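CLIP peaks, CTCF ChIP peaks and nuclear RNA-seq rows were read from lists the authors deposited. The submitters' processing notes name build mm9 and, without roles or order, Cufflinks 2.1.1, TopHat2 2.0.8, Novoalign 3.00.03, Trim Galore 0.3.3, bedtools 2.17.0, cutadapt 1.0 and SAMtools 0.1.18. No peak caller is named ("not given in the sources used here"). Each deposited peak carries a score whose meaning is not stated, and peaks were listed per library. The deposited RNA-seq value was read as FPKM, the unit of Cufflinks, and a pooled row appears to hold the mean over its transcripts. Read depth is unknown. Meanings of the further columns in the deposited allelic lists are not given.

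The genes, windows and tests were chosen with earlier results of these data known. RNA-seq rows overlapping on a strand were merged into regions, with the 2 windows in place of the regions they overlapped. Peaks with at least 1 bp in common were shared. Days were compared by limma 3.58.1 (R 4.3.3, trended variance prior) on a log2 scale, with 1 added to the bases under same-strand peaks per Mb of list. Regions needed peaks in at least 2 libraries, p-values had Benjamini-Hochberg adjustment over all such regions, and 0.05 was the threshold. RNA change was log2 of FPKM plus 1, day 3 over day 0. Both scales understate change in low regions. Likeness used a pseudocount of 0.01 on density and 1 on FPKM, and the rule took the 3 nearest regions of at least 10 kb. Limma and overlap steps were tested on simulated data. Changes simulated for limma were absent or far larger than those fitted for these genes, so changes of the fitted size were not covered. Other software was Python 3.11.15 with pandas 2.3.3, NumPy 2.4.6, SciPy 1.17.1 and matplotlib 3.10.9. Replicate numbers were not treated as pairs. Alternatives changed pseudocounts, scaling, filters, scores, overlap, windows, RNA rows and libraries, and added a replicate block. Other cohesin genes and cell markers were not located without an mm9 annotation.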

Additional observations from a re-analysis of the deposited data

How the results depend on the processing

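The Ctcf CLIP change stayed negative and uncalled under all 16 alternatives, from -0.44 to -0.0048 with limma adjusted p from 0.744 to 0.9996, and from -0.36 to -0.0048 when leaving out 1 library. The Rad21 change stayed uncalled under 15 alternatives (adjusted p from 0.699 to 1) but changed sign: it was -0.017 on peak counts and -0.13 without scaling, and ranged from -0.25 to 0.34 when leaving out 1 library. Calls over all regions were 45 on peak counts and 0 under the other alternatives, with 0 to 0 when leaving out 1 library. Ctcf sites in every library went from 1 to 0 with an overlap of 0.5 of the shorter peak and to 0 with peaks at or above the median score, and ranged from 0 (without day 0 replicate 2) to 1. Rad21 sites went from 4 to 1 with peaks at or above the median score and ranged from 4 to 5. ChIP sites in every library ranged from 1 to 2 for Ctcf (2 without day 0 replicate 2) and from 0 to 1 for Rad21 (1 without day 0 replicate 1). The Ctcf RNA change was 2.40 when centred on the median change of all regions listed on both days, short ones included (0.23). The Rad21 RNA change reversed to -1.19 with the longest row and -1.08 with rows weighted by length, since the 176 bp row then counts for little, and to -2.12 with the transcripts of the longest row summed; it was 2.00 when centred. The cause of the other differences was not tested.

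With a replicate block the CLIP change was -0.18 (adjusted p = 0.958) for Ctcf and 0.04 (adjusted p = 0.997) for Rad21, with 0 calls and 1252 regions at an unadjusted p under 0.05. Deviations of same-numbered libraries correlated at 0.063 over 7682 regions, and the labels give no shared source, so the numbers were not taken as pairs. With 1 RNA-seq library per day and 1 ChIP library on day 3, those readouts have no replicate spread between days.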

Other observations

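The allelic lists add little on either gene. In the ChIP lists split by allele, Ctcf held 0, 3 and 2 peaks marked mus and none marked cas, in the order day 0 replicates 1 and 2, then day 3. Within 5 Mb of Ctcf the counts were 282, 482 and 268 peaks marked mus and 0 marked cas in each library, although the whole chromosome held 1074, 1471 and 853 marked cas. Around Rad21, within 5 Mb, 96, 142 and 73 peaks were marked mus and 0, 1 and 0 marked cas, and the whole of chromosome 15 held 6, 3 and 3 marked cas. ChIP alleles were not compared at either gene for lack of peaks marked cas nearby. Among the CLIP lists split by allele, only the plus strand of day 0 replicate 1 held any peaks on either gene's chromosome. In that list, 31 peaks were marked cas and 57 mus within 5 Mb of Ctcf, and the Ctcf window held 1 and 2.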
